A study of Mus musculus with 4 samples.

Results

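The genes described here encode the proteasome: the subunits of its 20S core and 19S regulatory particle, its activators, its inhibitor PI31 and its dedicated assembly chaperones. They were chosen by symbol, as every gene of the deposited table named Psma, Psmb, Psmc, Psmd, Psme, Psmf or Psmg followed by a number. The rule found 48 of 53465 genes, and 47 of them were among the 21822 genes with enough counts to be tested. The member that was not tested, Psmb11, encodes the beta subunit of the thymus cortex and had 7 and 4 counts in the knockout libraries and 6 and 2 counts in the wild-type libraries.

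The proteasome is the main ATP-dependent protease of the nucleus and cytosol. Its 20S core is a barrel of outer alpha rings, which gate entry, and inner beta rings, which hold the proteolytic sites. The 19S particle caps the barrel, binds ubiquitin-tagged substrates, removes the tag and unfolds the protein with a ring of ATPases. Cytokine-exposed and immune cells exchange the catalytic beta subunits for the immunoproteasome subunits encoded by Psmb8, Psmb9 and Psmb10. Male germ cells carry an alternative form, the spermatoproteasome, in which PSMA8 takes the place of the alpha subunit PSMA7. The activator PA200, encoded by Psme4, is known for a role in the degradation of acetylated histones during spermatogenesis.

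RNA was sequenced from whole testes of male mice at postnatal day 18, when the first wave of germ cells is in meiosis. The cKO group (2 libraries) carried a conditional knockout of Sympk, which encodes symplekin, a scaffold of mRNA 3′ end processing, made with Stra8-Cre. Stra8-Cre drives recombination in germ cells from the spermatogonial stage, so the somatic cells of the testis keep the gene. The wild-type group (2 libraries) had the same age, and both groups were of a C57BL/6-ICR mixed background. The labels do not state the floxed alleles or whether a library came from 1 animal or from several, so the p-values speak of the spread between these libraries alone, and that spread may be technical.

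The libraries held 32730868 to 41584389 counts. Levels are CPM, the share of a library's counts scaled with TMM factors, unless a scale per length is named. Sympk itself had 171.5 and 173.2 CPM in cKO testes, against 225.2 and 192.0 CPM in wild-type testes. The groups did not overlap, and the difference did not pass the test (log2 fold change −0.28, edgeR adjusted p = 0.132). Markers of pachytene and later spermatocytes were lower in 13 of 14 genes, with summed levels of 140.9 and 175.9 CPM in cKO testes, against 7285 and 6992 CPM in wild-type testes. Markers of Sertoli cells were higher in 19 of 20 genes, with a median log2 fold change of 1.28. In whole tissue, fewer cells of a type and less RNA per cell cannot be told apart.

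Most proteasome genes were lower in cKO testes, and the immunoproteasome genes were higher. Of the 47 members tested, 31 changed at an edgeR adjusted p under 0.05, a share of 66.0%, against 63.4% of all genes tested. The test found 25 members lower, or 53.2%, against 34.3% of all genes, and 6 members higher, or 12.8%, against 29.2% of all genes. The median log2 fold change of the members was −0.54, against −0.02 over all genes tested. The libraries of the groups did not overlap in 42 of the 47 members, and in 83.8% of all genes tested. The 6 higher members lay above the median of all genes, but their sign did not hold on every scale. Scaling to the Sertoli markers, by the median of their log2 counts in each library, moved the median of all genes to −1.39. It left 0 members higher and 42 lower. On that scale, as with TMM, 8 members lay above the median of all genes and 39 below it. A change of scale moves the members and the median nearly alike, so this match was bound to occur. Scaling to library totals alone moved the median of all genes to 0.20, with 7 members higher and 18 lower.

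**Figure D1:**
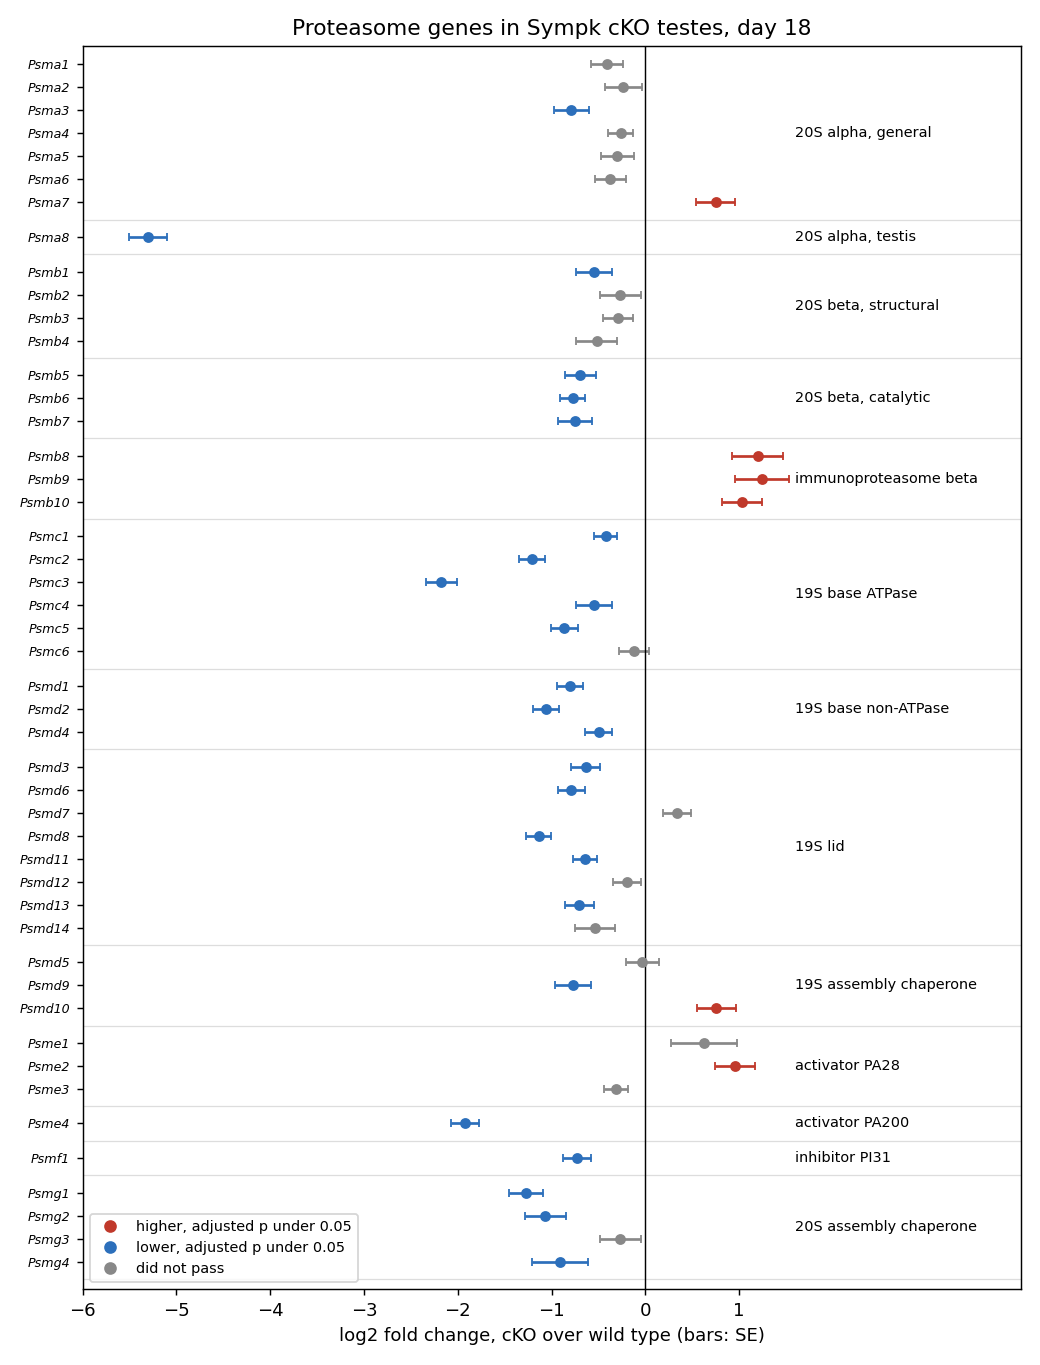
Log2 fold change of each of the 47 tested proteasome genes, cKO over wild type, with bars of 1 SE, grouped by role. Points left of 0 are lower in cKO testes. Psma8 stands at −5.31, Psmc3 at −2.18 and Psme4 at −1.92, while Psmb8, Psmb9 and Psmb10 lie between 1.03 and 1.24.

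The upstream DNA of a few members that fell is shown because the falling members belong to different parts of the particle. These are the activator gene Psme4, the catalytic core gene Psmb5 and the lid gene Psmd8. The sequences come from RefSeq promoter windows of GRCm38.p6, which cover 250 bases before to 50 after each start, and stop short of the first annotated exon. They are given 5′ to 3′ on the strand of the gene. In Psmb5 the capitals mark the letters TGACNNNGC, the core of the antioxidant response element that NRF1 and NRF2 bind. The bases printed for Psme4 and Psmd8 held none of the motifs searched. They lie at chr11:30771525-30771725 (plus strand, Psme4), chr14:54618023-54618245 (minus strand, Psmb5) and chr7:29180702-29180923 (minus strand, Psmd8).
Psme4: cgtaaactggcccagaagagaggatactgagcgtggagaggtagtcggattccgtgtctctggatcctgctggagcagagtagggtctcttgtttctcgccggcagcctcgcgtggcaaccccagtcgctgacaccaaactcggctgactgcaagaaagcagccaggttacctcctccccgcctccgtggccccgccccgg
Psmb5: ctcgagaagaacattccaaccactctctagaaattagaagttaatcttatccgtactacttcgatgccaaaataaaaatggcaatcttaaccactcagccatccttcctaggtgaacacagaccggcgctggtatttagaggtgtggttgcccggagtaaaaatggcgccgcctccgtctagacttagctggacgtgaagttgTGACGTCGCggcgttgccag
Psmd8: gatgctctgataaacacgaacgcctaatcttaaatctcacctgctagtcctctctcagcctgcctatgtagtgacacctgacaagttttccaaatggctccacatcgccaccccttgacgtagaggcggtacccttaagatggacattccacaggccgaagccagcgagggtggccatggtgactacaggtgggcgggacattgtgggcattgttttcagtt

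RefSeq windows were matched for 40 of the 48 members. On either strand, TGACNNNGC was present in 6 of them (Psmb5, Psmb6, Psmc6, Psmd9, Psmd12 and Psme4), or 15.0%, against 14.0% of all genes with a window. In Psme4 the match lies in the bases of its window that are not printed above. CCAAT, the CCAAT box, was present in 14 members, or 35.0%, against 41.1% of all genes. The core of the interferon-stimulated response element was present in 5 members, or 12.5%, against 3.99% of all genes. These were Psmb3, Psmd4, Psmd9, Psme1 and Psmg4, of which 0 were higher in cKO testes. A match describes the letters of a window and is not evidence of a bound site.

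Psma8, which encodes the germ cell alpha subunit of the spermatoproteasome, had the largest fall among the members. The gene (ENSMUSG00000036743) lies on chromosome 18 from 14706151 to 14762299. It had 10.4 and 13.3 CPM in cKO testes, against 433.7 and 503.0 CPM in wild-type testes. Both cKO libraries lay far below both wild-type libraries. The means were 11.9 ± 1.99 CPM in cKO and 468.3 ± 49.0 CPM in wild-type testes (SD, n = 2 each), a 39.5-fold lower level (log2 fold change −5.31, SE 0.20, edgeR adjusted p = 1.5e-05). Of all genes tested, 6.59% had a lower log2 fold change. Psma8 was still detected in cKO testes, with 447 and 484 counts. The pachytene markers had a median log2 fold change of −6.89, and their part in the fall of Psma8 was not tested.

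Psma7, whose product holds the same place in the general core, was higher in cKO testes. It had 94.4 and 97.0 CPM in cKO testes, against 45.5 and 68.3 CPM in wild-type testes, with no overlap (log2 fold change 0.75, SE 0.21, edgeR adjusted p = 0.0202). Relative to the Sertoli markers the sign reversed to −0.60, which was 0.79 above the median of all genes on that scale. Psma7 missed the threshold when cKO replicate 1 (edgeR adjusted p = 0.0504) or cKO replicate 2 (0.0592) was left out. The log2 fold change fell to 0.48 without wild-type replicate 1, where Psma7 was lowest.

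Levels of both genes were set on a common scale by dividing counts by the length of the principal transcript. Psma8 then made up 5.64% and 6.88% of the pair Psma8 and Psma7 in cKO testes, against 83.8% and 79.9% in wild-type testes. Psma8 was the larger member of the pair in both wild-type libraries and the smaller in both cKO libraries. On the deposited FPKM, which divide by a fixed length per gene, its share was 23.8% ± 2.71 in cKO and 95.5% ± 0.788 in wild-type testes (SD, n = 2 each). The length behind the FPKM of Psma7 was 4282 bases, and its principal transcript has 914 bases. For Psma8 these lengths were 1693 and 1692 bases. The exact two-sided permutation p of such shares was 0.333, the smallest that 2 libraries against 2 can give.

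**Figure D2:**
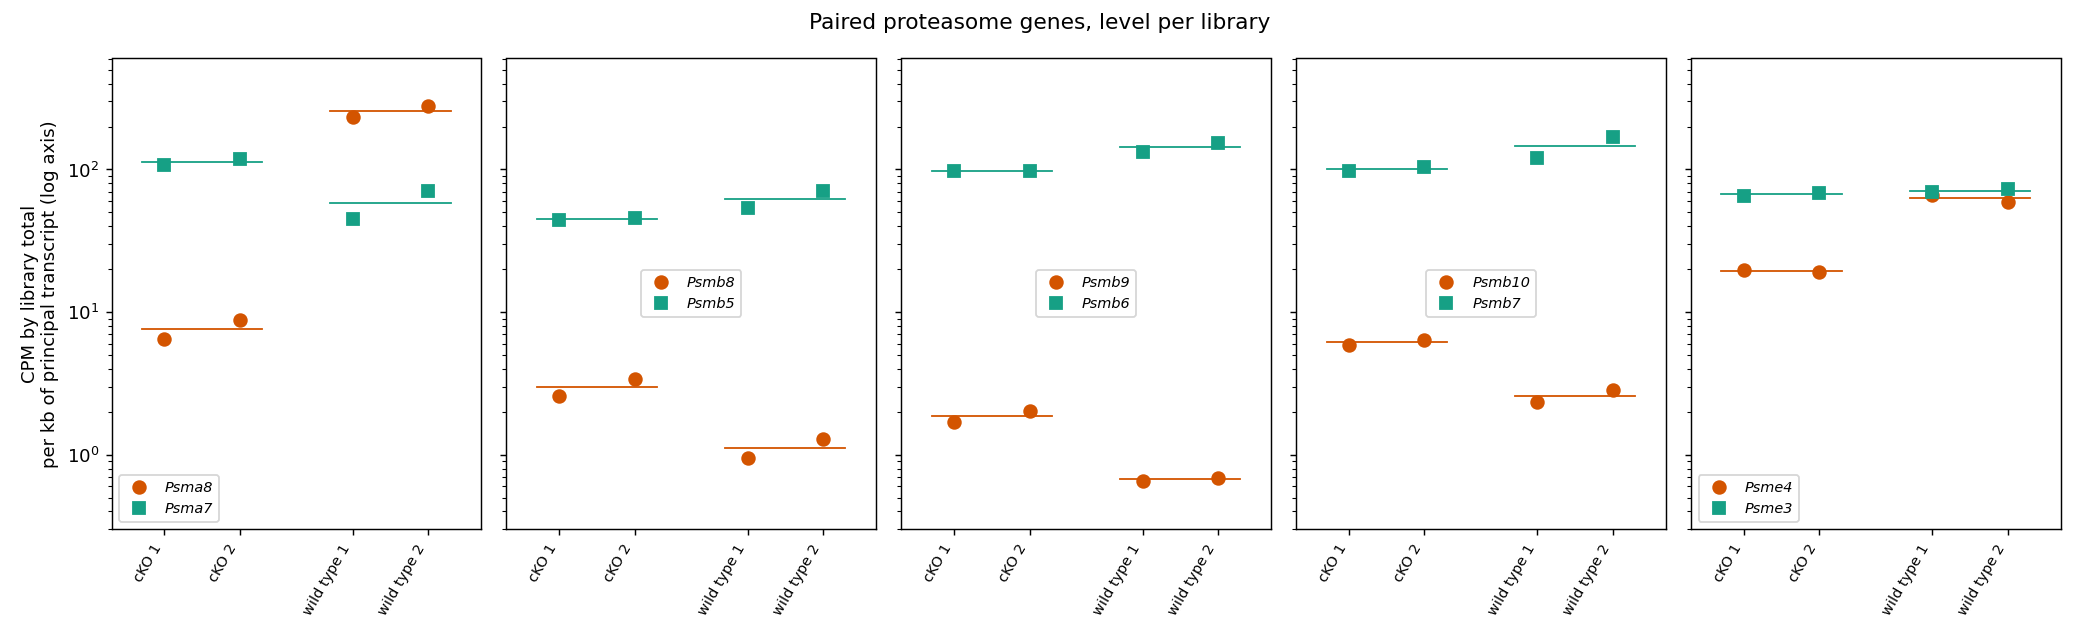
Level of 5 pairs of proteasome genes in each library, in CPM by library total per kb of the principal transcript, on a log axis, with lines at the group means. Psma8 averaged 7.59 in cKO and 256.5 in wild-type testes, and Psma7 averaged 113.1 in cKO and 57.8 in wild-type testes. Psmb8, Psmb9 and Psmb10 stayed below Psmb5, Psmb6 and Psmb7 in every library.

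Most other general alpha genes did not pass the test. Among all 7 general alpha genes, 1 was higher (Psma7), 1 was lower (Psma3) and 5 did not pass. Psma3 had 25.5 and 26.1 CPM in cKO testes, against 38.0 and 51.3 CPM in wild-type testes (log2 fold change −0.79, edgeR adjusted p = 0.0105). Psma1, Psma2, Psma4, Psma5 and Psma6 had log2 fold changes between −0.41 and −0.23. These 5 genes lay between −0.57 and −0.35 without wild-type replicate 1, and between −0.25 and 0.04 without wild-type replicate 2. Their summed level with Psma3 and Psma7 was 418.1 and 408.3 CPM in cKO testes, against 403.9 and 529.4 CPM in wild-type testes, so the groups overlapped. Of the 4 beta subunits without a proteolytic site of their own, Psmb1 was lower and Psmb2, Psmb3 and Psmb4 did not pass. Psmb1 had 85.7 and 84.9 CPM in cKO testes, against 102.3 and 146.3 CPM in wild-type testes (log2 fold change −0.54, edgeR adjusted p = 0.0459). Psmb2 had 52.3 and 52.8 CPM in cKO testes, against 50.0 and 76.5 CPM in wild-type testes, and the groups overlapped (log2 fold change −0.27). Psmb1 missed the threshold with library totals alone (edgeR adjusted p = 0.204), and on leaving out cKO replicate 1 (0.134), cKO replicate 2 (0.146) or wild-type replicate 2 (0.0933, log2 fold change −0.28). It also missed it with the replicate block (0.0574), limma-voom (0.0562), no filter (0.0516) and a mean of at least 5 CPM (0.0608).

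All 3 catalytic beta genes of the general core were lower in cKO testes, against 34.3% of all genes tested. Psmb5, the chymotrypsin-like subunit, had 37.8 and 37.0 CPM in cKO testes, against 53.1 and 68.0 CPM in wild-type testes. Psmb6, the caspase-like subunit, had 74.8 and 69.6 CPM in cKO testes, against 116.6 and 130.8 CPM in wild-type testes. Psmb7, the trypsin-like subunit, had 108.3 and 107.4 CPM in cKO testes, against 153.7 and 209.2 CPM in wild-type testes. In each of them both cKO libraries lay below both wild-type libraries, and the groups did not overlap in 83.8% of all genes tested. The log2 fold changes were −0.69 (SE 0.17) for Psmb5, −0.78 (SE 0.14) for Psmb6 and −0.75 (SE 0.18) for Psmb7, with edgeR adjusted p of 0.0115, 0.00334 and 0.0109. Psmb5 missed the threshold without cKO replicate 1 (0.0535), without cKO replicate 2 (0.0623) and with library totals alone (0.0554), and Psmb7 missed it without cKO replicate 2 (0.0519). In Psmb7, 405 exon bases, or 11.8%, are shared with Nek6 on the other strand, and in Psmb5 12.1% are shared with Mir686.

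The 3 immunoproteasome beta genes went the other way, at far lower levels, though each reversed relative to the Sertoli markers, to between −0.33 and −0.12. Psmb8 (chromosome 17, 34197721 to 34201454), which replaces Psmb5, had 4.04 and 4.96 CPM in cKO testes, against 1.69 and 2.22 CPM in wild-type testes. Psmb9 (chromosome 17, 34181988 to 34187764), which replaces Psmb6, had 2.20 and 2.47 CPM in cKO testes, against 0.978 and 0.985 CPM in wild-type testes. Psmb10 (chromosome 8, 105935735 to 105938444), which replaces Psmb7, had 7.43 and 7.51 CPM in cKO testes, against 3.36 and 3.94 CPM in wild-type testes. The groups did not overlap in any of the 3 genes, as in 83.8% of all genes tested. Log2 fold changes were 1.20 (SE 0.27) for Psmb8, 1.24 (SE 0.28) for Psmb9 and 1.03 (SE 0.21) for Psmb10, with edgeR adjusted p of 0.00945, 0.00955 and 0.00641. Psmb8 shares 14.7% of its exon bases with the antisense gene Gm20496, and Psmb9 shares 5.79% with Tap1 on the other strand, and reads of such overlaps cannot be told apart if the counting ignored strand, on which the sources used here are silent.

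Per kb of principal transcript, Psmb8 made up 5.58% and 6.89% of Psmb8 and Psmb5 in cKO testes, against 1.73% and 1.77% in wild-type testes. Psmb9 made up 1.70% and 2.05% of Psmb9 and Psmb6 in cKO testes, against 0.492% and 0.442% in wild-type testes. Psmb10 made up 5.72% and 5.82% of Psmb10 and Psmb7 in cKO testes, against 1.90% and 1.64% in wild-type testes. The immune share was thus higher in both cKO libraries for each pair, and the general subunit held most of each pair in every library. A share within a library does not depend on the scaling between libraries.

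**Figure D3:**
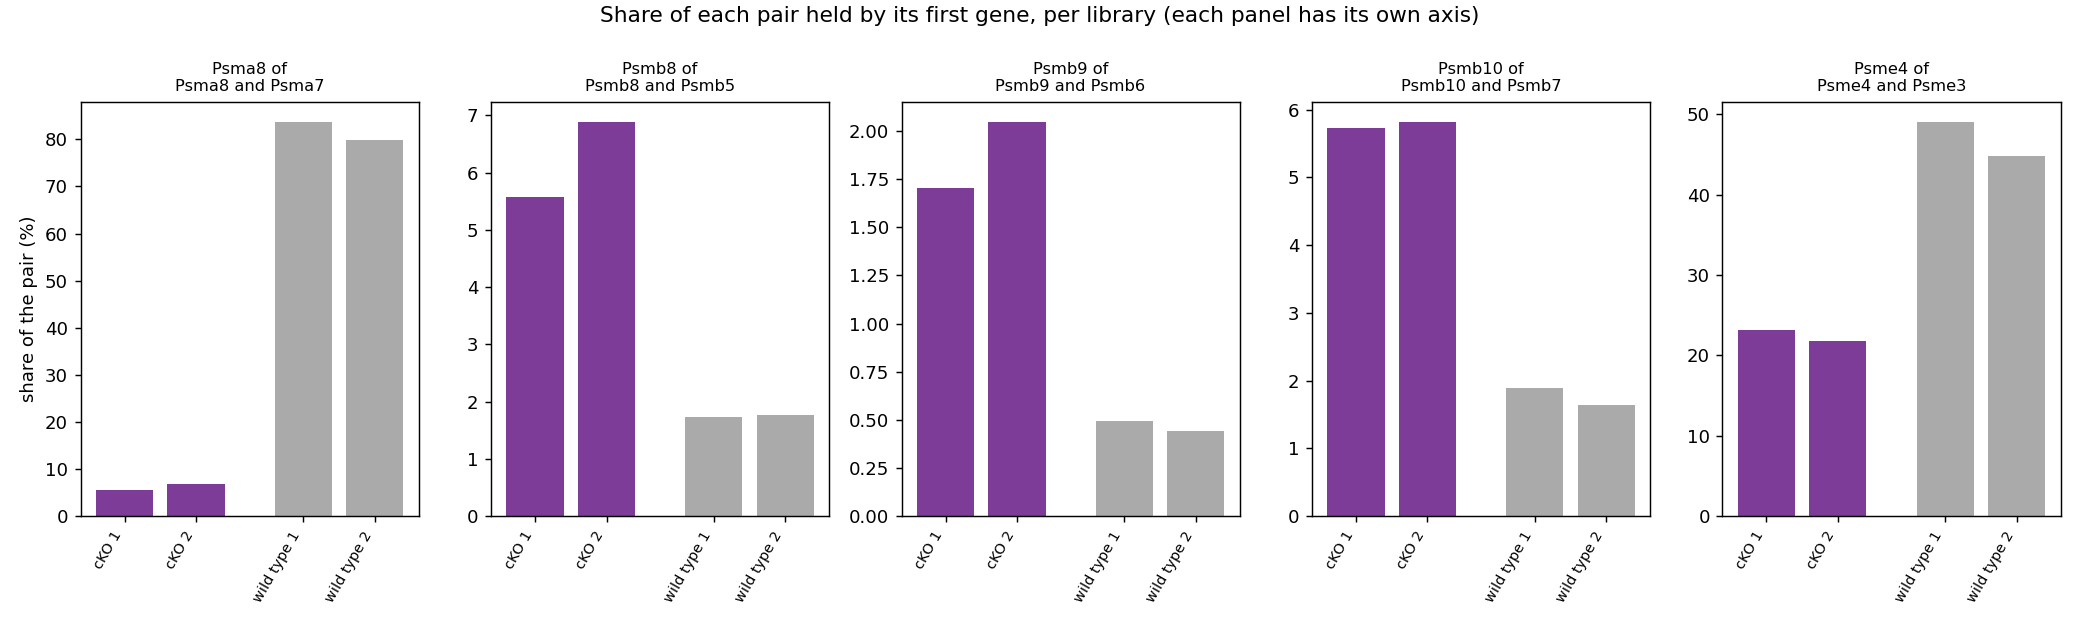
Share in percent that the first gene of each pair holds, per kb of principal transcript, in each library, on axes that start at 0 and differ between panels. The Psma8 share is 5.64% and 6.88% in cKO testes, against 83.8% and 79.9% in wild-type testes, and the shares of Psmb8, Psmb9 and Psmb10 are higher in both cKO libraries.

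PA28 alpha and PA28 beta, encoded by Psme1 and Psme2, form the cap often found with the immunoproteasome. Psme2 had 11.1 and 11.6 CPM in cKO testes, against 5.10 and 6.58 CPM in wild-type testes, with no overlap (log2 fold change 0.96, SE 0.21, edgeR adjusted p = 0.00845); the sign reversed to −0.40 relative to the Sertoli markers. Psme2b, a single-exon gene with a sequence close to that of Psme2 and outside the naming rule, had 26.3 and 24.1 CPM in cKO testes, against 12.0 and 17.1 CPM in wild-type testes, and how reads were split between them is uncertain. Psme1 had 27.6 and 24.0 CPM in cKO testes, against 10.6 and 22.9 CPM in wild-type testes. Its wild-type libraries lay far apart, and the difference did not pass (log2 fold change 0.62, adjusted p = 0.162). Without wild-type replicate 2 Psme1 passed, with a log2 fold change of 1.26 and an edgeR adjusted p of 0.0058, and without wild-type replicate 1 the log2 fold change was 0.17. Of the 5 genes Psmb8, Psmb9, Psmb10, Psme1 and Psme2, 4 were higher in cKO testes, with a median log2 fold change of 1.03. Of all genes tested, 29.2% were higher. Relative to the Sertoli markers all 5 lay between −0.72 and −0.12.

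The genes around antigen processing, a list that includes the peptide transporter, class I components and their inducers, were mostly higher too. Of 16 genes, 11 were higher (68.8%), 2 lower (12.5%) and 3 did not pass. Over all genes tested, 29.2% were higher and 34.3% lower. The median log2 fold change of the list was 0.89, against −0.02 over all genes tested. Relative to the Sertoli markers 8 of the listed genes were lower and 0 higher. Tap1, a subunit of the peptide transporter, had 8.69 and 9.40 CPM in cKO testes, against 3.36 and 3.91 CPM in wild-type testes (log2 fold change 1.31, −0.04 relative to the Sertoli markers). Tap2, its partner, had 9.93 and 12.5 CPM in cKO testes, against 4.23 and 4.73 CPM in wild-type testes (log2 fold change 1.33, −0.03 relative to the Sertoli markers). Ciita, the transactivator of class II genes, had 0.981 and 1.29 CPM in cKO testes, against 0.344 and 0.0844 CPM in wild-type testes (log2 fold change 2.37). Its wild-type level rests on 13 and 3 counts, and the log2 fold change was 3.69 without wild-type replicate 1 and 1.69 without wild-type replicate 2. Relative to the Sertoli markers Ciita missed the threshold (edgeR adjusted p = 0.236). The genes that fell, Calr and Canx, encode chaperones of the endoplasmic reticulum and had log2 fold changes of −0.75 each. Both missed the threshold without cKO replicate 2, with edgeR adjusted p of 0.0525 for Calr and 0.0535 for Canx.

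Most leukocyte markers moved with the immune members. Of the 17 tested of 20 listed, 15 were higher (88.2%, against 29.2% of all genes tested). The median log2 fold change was 1.34. Summed levels were 594.9 and 666.4 CPM in cKO testes, against 254.5 and 300.3 CPM in wild-type testes. Ms4a1 and Nkg7, markers of B and cytotoxic cells, were at 0 in cKO replicate 2 and in 1 or both wild-type libraries, and the T cell marker Cd3g was at 0 in wild-type replicate 1. Another T cell marker, Cd3e, went the other way, with 0.748 and 0.356 CPM in cKO testes, against 1.19 and 1.21 CPM in wild-type testes. It did not pass (log2 fold change −1.10, edgeR adjusted p = 0.0634). Markers of Leydig cells were higher in 7 of 10 genes (median log2 fold change 1.38), and those of peritubular and endothelial cells in 10 of 12 (median 1.18). The part of these cells in the higher levels of Psmb8, Psmb9, Psmb10 and Psme2 was not tested.

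Most genes of the 19S particle were lower in cKO testes. Of its 17 subunit genes, 13 were lower (76.5%), 0 were higher and 4 did not pass. Of all genes tested, 34.3% were lower and 29.2% higher. The median log2 fold change of the 17 genes was −0.65. For comparison, the 14 general genes of the 20S core had 5 lower, 1 higher and 8 that missed the threshold, with a median of −0.39. Those 8 genes had log2 fold changes between −0.81 and −0.35 without wild-type replicate 1. Without wild-type replicate 2 they lay between −0.25 and 0.05, so the count for the core depends on the wild-type libraries used. Whether the fall differed between the 19S particle and the core was not tested. Within the 19S particle, 5 of 6 ATPase genes, 3 of 3 other base genes and 5 of 8 lid genes were lower.

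Psmc3, which encodes the ATPase RPT5, fell most of the 19S genes. It had 127.4 and 129.0 CPM in cKO testes, against 517.7 and 641.9 CPM in wild-type testes. Both cKO libraries lay below both wild-type libraries, a 4.52-fold lower level (log2 fold change −2.18, SE 0.17, edgeR adjusted p = 1.31e-04). Of all genes tested, 15.7% had a lower log2 fold change. Of the exon bases of Psmc3, 8.25% are shared with Slc39a13 on the other strand. Per kb of principal transcript Psmc3 was in place 7 of the 48 members in cKO testes and in place 1 in wild-type testes, with 84.6 ± 4.68 in cKO and 328.6 ± 57.5 in wild-type testes (SD, n = 2 each). On the deposited FPKM it was in place 11 in cKO testes and in place 3 in wild-type testes. Per kb of principal transcript Psma8 was next in order in wild-type testes, with 256.5 ± 32.9. Psmc3 was above it in both wild-type libraries (288.0 against 233.3 in replicate 1, 369.2 against 279.7 in replicate 2). On the deposited FPKM Psma8 was instead in place 1 in wild-type testes, and the difference between the 2 genes was not tested. Psmc6, the ATPase RPT4, had 101.2 and 103.7 CPM in cKO testes, against 98.4 and 124.7 CPM in wild-type testes, and the groups overlapped (log2 fold change −0.12, adjusted p = 0.517). Psmc2, the ATPase RPT1, was 2.32-fold lower in cKO testes (log2 fold change −1.21, edgeR adjusted p = 6.98e-04), while Psmc1, Psmc4 and Psmc5 had log2 fold changes between −0.86 and −0.42. Psmc1 and Psmc4 missed the threshold without cKO replicate 1 (adjusted p = 0.125 for Psmc1, 0.182 for Psmc4) and without cKO replicate 2 (0.178 for Psmc1, 0.107 for Psmc4), and Psmc4 also without wild-type replicate 2 (0.125, log2 fold change −0.29). Both missed it with library totals alone (0.205 for Psmc1, 0.221 for Psmc4), Psmc1 with the replicate block (0.0636), and Psmc4 with limma-voom (0.0574), no filter (0.0550), a mean of at least 5 CPM (0.0642) and the crossed block (0.0557).

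Among the base genes outside the ATPase ring, Psmd2, the scaffold RPN1, fell most. It had 211.8 and 207.2 CPM in cKO testes, against 415.1 and 460.7 CPM in wild-type testes (log2 fold change −1.06, SE 0.14, edgeR adjusted p = 0.00108). Psmd4, the ubiquitin receptor RPN10, had 112.4 and 109.6 CPM in cKO testes, against 143.6 and 170.0 CPM in wild-type testes (log2 fold change −0.50, edgeR adjusted p = 0.0216). The groups did not overlap in either gene. Psmd4 missed the threshold without cKO replicate 1 (0.103), without cKO replicate 2 (0.128) and with library totals alone (0.140).

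Among the lid genes Psmd8 fell most, and only Psmd7 had a log2 fold change above 0. Psmd8, which encodes RPN12, had 94.9 and 91.5 CPM in cKO testes, against 215.2 and 194.8 CPM in wild-type testes (log2 fold change −1.14, SE 0.13, edgeR adjusted p = 6.96e-04). Psmd7, which encodes RPN8, had 221.8 and 199.9 CPM in cKO testes, against 151.0 and 182.6 CPM in wild-type testes. The groups did not overlap in either gene, but the difference in Psmd7 did not pass (log2 fold change 0.34, SE 0.15, adjusted p = 0.0971). Psmd7 passed with library totals alone (0.56, edgeR adjusted p = 0.0195) and without wild-type replicate 2 (0.46, 0.0326), and stood at −1.03 relative to the Sertoli markers. Psmd14, the deubiquitinating enzyme RPN11, and Psmd12 did not pass, with log2 fold changes of −0.54 and −0.20. Psmd3, Psmd6, Psmd11 and Psmd13 were lower, with log2 fold changes between −0.79 and −0.64. Psmd3 and Psmd13 missed the threshold without cKO replicate 2, with edgeR adjusted p of 0.106 for Psmd3 and 0.0555 for Psmd13.

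Psme4, the gene of the activator PA200, had a fall close to that of Psmc3. The gene (ENSMUSG00000040850) lies on chromosome 11 from 30771726 to 30880361. It had 122.3 and 111.4 CPM in cKO testes, against 474.4 and 410.9 CPM in wild-type testes. Both cKO libraries lay below both wild-type libraries, a 3.79-fold lower level (log2 fold change −1.92, SE 0.15, edgeR adjusted p = 1.55e-04). Psme3, which encodes the nuclear activator PA28 gamma, had 166.2 and 163.8 CPM in cKO testes, against 202.0 and 207.7 CPM in wild-type testes, with no overlap, and did not pass (log2 fold change −0.31, SE 0.13, adjusted p = 0.0689). It passed without wild-type replicate 1 (edgeR adjusted p = 0.0482) and with RLE size factors (0.0490). Per kb of principal transcript, Psme4 made up 23.2% and 21.8% of Psme4 and Psme3 in cKO testes, against 49.1% and 44.8% in wild-type testes. PA200 and PA28 gamma are both activators of the nuclear proteasome but are not related in sequence.

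Psmf1, which encodes the 20S-binding protein PI31, had 25.9 and 25.5 CPM in cKO testes, against 39.9 and 45.4 CPM in wild-type testes (log2 fold change −0.73, SE 0.15, edgeR adjusted p = 0.0059). Chaperones that assemble the 20S core were lower in 3 of 4 genes, against 34.3% of all genes tested. Psmg1 had 12.6 and 11.3 CPM in cKO testes, against 25.6 and 32.1 CPM in wild-type testes (log2 fold change −1.27, SE 0.18, edgeR adjusted p = 0.00159). Its partner Psmg2 had 13.0 and 13.5 CPM in cKO testes, against 22.6 and 33.1 CPM in wild-type testes (log2 fold change −1.07, SE 0.22, edgeR adjusted p = 0.00624). In this group the cKO and wild-type libraries did not overlap in any of the 4 genes, as in 83.8% of all genes tested. Psmg4 had 1.61 and 2.44 CPM in cKO testes, against 3.46 and 4.14 CPM in wild-type testes (log2 fold change −0.91, edgeR adjusted p = 0.0368). Psmg3, the partner of Psmg4, had 6.87 and 5.53 CPM in cKO testes, against 6.90 and 8.05 CPM in wild-type testes, and did not pass (log2 fold change −0.27). Psmg4 missed the threshold without cKO replicate 1 (0.182), without wild-type replicate 1 (0.0601), without wild-type replicate 2 (0.121) and with library totals alone (0.110).

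The 3 chaperones of the 19S base differed in direction. Psmd10, which encodes gankyrin, was the member on the X chromosome, and had 22.6 and 18.1 CPM in cKO testes, against 10.4 and 13.7 CPM in wild-type testes (log2 fold change 0.76, SE 0.21, edgeR adjusted p = 0.0208); relative to the Sertoli markers it stood at −0.61. Psmd9 had 19.8 and 27.4 CPM in cKO testes, against 40.4 and 40.3 CPM in wild-type testes (log2 fold change −0.77, SE 0.19, edgeR adjusted p = 0.0136). The groups did not overlap in either gene. Psmd5 had a log2 fold change of −0.03 and overlapping groups. Psmd10 missed the threshold without cKO replicate 1 (0.112) and without wild-type replicate 1 (0.0707), and Psmd9 without cKO replicate 1 (0.0901) and with library totals alone (0.0672). Of the exon bases of Psmd9, 25.5% are shared with Gm26745 on the other strand.

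**Figure D4:**
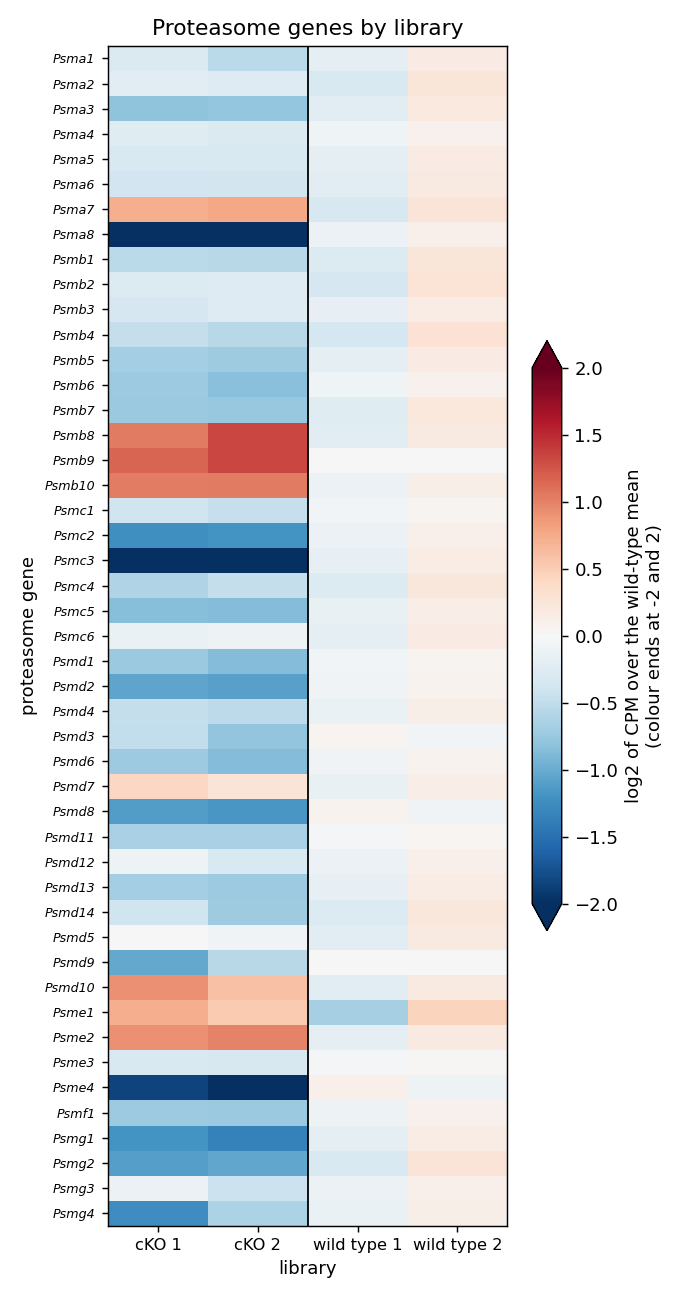
Level of each tested proteasome gene in each library, as log2 of its CPM over the wild-type mean, with colours that end at −2 and 2. Psma8, Psmc3, Psme4 and Psmc2 are low in both cKO libraries, Psmb8, Psmb9 and Psmb10 are high in both, and wild-type replicate 2 is above wild-type replicate 1 in 43 of the 47 genes.

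The wild-type libraries differed from each other across the members. Wild-type replicate 2 was above wild-type replicate 1 in 43 of 47 members, with a median ratio of 1.23, and in 50.1% of all genes tested. Psmd3, Psmd8, Psmd9 and Psme4 were the exceptions. In the cKO group, replicate 2 was above replicate 1 in 19 of 47 members, with a median ratio of 0.984. With wild-type replicate 1 left out 38 members changed (5 higher, 33 lower), and with wild-type replicate 2 left out 30 changed (8 higher, 22 lower). With cKO replicate 1 left out 22 members changed (4 higher, 18 lower), and with cKO replicate 2 left out 22 changed (5 higher, 17 lower).

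The order of levels within a library group also differed. Per kb of principal transcript, the highest members in cKO testes were Psmd7 (143.7 ± 3.88), Psma7 (113.1 ± 7.39), Psmb7 (100.4 ± 4.10) and Psmb6 (97.6 ± 0.443; SD, n = 2 each). In wild-type testes they were Psmc3, Psma8, Psmb7 (145.1 ± 34.8) and Psmb6 (143.6 ± 15.1). Psmb7 and Psmb6 were next to each other in both groups and did not differ beyond their spread. Psma8 was in place 40 of 48 in cKO testes and in place 2 in wild-type testes. Psme4 was in place 32 in cKO testes and in place 21 in wild-type testes. Psmb8, Psmb9 and Psmb11 were the lowest 3 in both groups. The order changed with the length used, and the scale per principal transcript was chosen after seeing the data. On the deposited FPKM the highest members were Psmd7, Psmb1, Psmc5 and Psma6 in cKO testes, and Psma8, Psmb1, Psmc3 and Psmc5 in wild-type testes. On that scale Psma7 was in place 15 in cKO testes and in place 32 in wild-type testes, and Psma8 in place 34 in cKO testes and in place 1 in wild-type testes.

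Other genes of the pathway, outside the naming rule, were read from a list of 28 genes, most of them for ubiquitin supply, shuttling, assembly and proteasome transcription. Of the 26 tested, 4 were higher (15.4%), 11 lower (42.3%) and 11 did not pass. Over all genes tested, 29.2% were higher and 34.3% lower. The median log2 fold change of the list was −0.34. Relative to the Sertoli markers 23 of the listed genes were lower and 0 higher. Psmc3ip, which encodes the meiotic recombination factor HOP2 and is not a proteasome subunit despite its symbol, had 8.15 and 13.0 CPM in cKO testes, against 121.0 and 122.0 CPM in wild-type testes (log2 fold change −3.52). Without it the list had 4 genes higher, 10 lower and 11 that did not pass, with a median of −0.29. Fbxo7, an F-box protein that binds PI31, had 17.4 and 20.7 CPM in cKO testes, against 58.7 and 64.8 CPM in wild-type testes (log2 fold change −1.70). Ubqln2, another ubiquitin shuttle, had 203.6 and 203.9 CPM in cKO testes, against 77.1 and 74.3 CPM in wild-type testes (log2 fold change 1.43, and 0.06 relative to the Sertoli markers). Nfe2l1, which encodes NRF1, the transcription factor that raises proteasome genes when proteasomes are inhibited, had 217.6 and 210.0 CPM in cKO testes, against 117.4 and 71.4 CPM in wild-type testes (log2 fold change 1.18, and −0.21 relative to the Sertoli markers).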

How the data were processed

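Whole-testis RNA was sequenced from 2 cKO and 2 wild-type mouse libraries (postnatal day 18). The submitters' processing notes name HISAT2 and the build GRCm38. Which program counted the reads, on which annotation and with which strand setting, is not given in the sources used here. As deposited, the authors' table holds 53465 genes with counts per gene, whole and not normalized. In the same table the authors deposited FPKM values, which are those counts divided by library total and a fixed length per gene. That length can exceed the exon bases of a gene. For Psme1 it was 6549 bases, against 2209 exon bases in GENCODE M21, each counted once. FPKM was used only for shares within gene pairs and for the order of members, each beside the scale per principal transcript. Every gene row had a name. All 48 members were matched to GENCODE M21 (GRCm38) by identifier, 44 of them with the same coordinates; coordinates given are those of the deposited table, and principal transcript lengths and exon overlaps come from the annotation.

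Counts were filtered with filterByExpr, scaled with TMM and tested with edgeR 4.0.16 (R 4.3.3), using the quasi-likelihood test of genotype, two-sided, with p-values adjusted by Benjamini-Hochberg over the 21822 genes that entered and called under 0.05. Library totals were 40994172 and 32730868 counts for cKO and 41584389 and 37764044 counts for wild type, so that 1 TMM-scaled CPM stood for 35.5 to 42.8 counts. The replicates of each group differed by more than sampling noise, with a chi-square of 22.1 per gene in cKO and 46.7 per gene in wild type. Alternatives were RLE size factors, library totals alone, scaling to 20 Sertoli markers, DESeq2 1.42.0, limma-voom (limma 3.58.1), no filter, a mean of at least 5 CPM, a replicate block, and fits without each of the 4 libraries, in which a lone library takes the spread of the other group. The fit was tested on simulated data. Python 3.11.15 and scipy 1.17.1 gave the shares.

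The members, gene lists and tests were chosen with earlier results of these data known. Every member could be named. Values per library were given for Psma7, Psma8, Psmb5 to Psmb11, the Psme, Psmf and Psmg genes, and the members with the highest and lowest fold change of each other role. From each further list the rule took at most 3 changed genes that moved most in the majority direction and at most 2 of the opposite one. Psme2b was added after its values were seen. Of the listed pathway genes, 2 were not used here. A gene that the rule names and a motif searched are not reported here.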

Additional observations from a re-analysis of the deposited data

How the results depend on the processing

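Over all alternatives that kept the 4 libraries, 25 to 42 members changed, and with 1 library left out 22 to 38. Members higher numbered 4 to 8 and members lower 17 to 33 with 1 library left out. Psma8 lay between −5.48 and −5.14 and Psme4 between −2.04 and −1.82 with 1 library left out, other proteasome genes changed in 13 to 19 cases and antigen processing genes in 10 to 13. Scaling to the Sertoli markers gave 0 members higher and 42 lower, 23 other proteasome genes and 8 antigen processing genes changed. On that scale the sign reversed for Psma7 (−0.60), Psmb8 (−0.15), Psmb9 (−0.12), Psmb10 (−0.33), Psmd7 (−1.03), Psmd10 (−0.61), Psme1 (−0.72), Psme2 (−0.40), Psme2b (−0.57), Nfe2l1 (−0.21), Tap2 (−0.027) and Tap1 (−0.043), by construction of a scale that takes the Sertoli markers as constant. The sign of members that did not pass reversed with library totals alone for Psmc6 (0.10), Psmd12 (0.020) and Psmd5 (0.18), with a mean of at least 5 CPM for Psmd5 (0.014), and with 1 library left out for Psma2 (−0.49 to 0.042), Psmb2 (−0.55 to 0.052), Psmc6 (−0.29 to 0.038) and Psmd5 (−0.22 to 0.15), each positive without wild-type replicate 2; the cause was not tested. Psmd5 was also positive without cKO replicate 2 (0.0036).

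Shares of a pair moved with the length used. On counts with no length, Psma8 held 11.0% in cKO and 89.3% in wild-type testes, Psmb8 10.7% and 3.13%, Psmb9 3.14% and 0.789%, Psmb10 6.48% and 1.99%, and Psme4 41.4% and 68.3%, in the same order of groups. On counts per principal transcript, chosen after seeing the data, Psma8 held 6.26% in cKO and 81.8% in wild-type testes, Psmb8 6.23% and 1.75%, and Psmb9 1.88% and 0.467%. On the deposited FPKM the means in cKO and wild-type testes were 4.54% and 1.26% for Psmb8, 1.57% and 0.391% for Psmb9, 5.74% and 1.76% for Psmb10, and 22.2% and 46.5% for Psme4. The direction of each share was the same on all 3 scales. This was bound to occur, because the scales differ only by a fixed length per gene.

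The replicate numbers are not stated to pair the samples, and deviations of same-numbered libraries correlated at −0.106 over 21822 genes. With the numbers as a block 29 members changed (6 higher, 23 lower), with Psma8 at −5.31 and Psme4 at −1.92; 15 other proteasome genes and 13 antigen processing genes changed. With the numbers crossed, chosen after seeing the data, 32 members changed (6 higher, 26 lower). Psmb1, Psmc1, Psmc4, Psmd4 and Psmg4 were the calls nearest the threshold, and depth limits Psmb11 most.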

Other observations

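Psmd10 is the X-linked member, and 2 genes of the further pathway list, Ubqln2 and Uba1, also lie on the X chromosome. This property was looked at after their values were seen. All 3 were higher in cKO testes. Uba1, which encodes the main ubiquitin-activating enzyme, had 347.6 and 360.9 CPM in cKO testes, against 196.2 and 211.6 CPM in wild-type testes (log2 fold change 0.80, SE 0.13, edgeR adjusted p = 0.00287). Of 922 X-linked genes tested, 47.3% were higher in cKO testes, with a median log2 fold change of 0.62. Of 20831 autosomal genes tested, 28.4% were higher, with a median of −0.05.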
